A study of Mus musculus with 38 samples.

Results

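After 96 h of exposure to retinoic acid (RA), cultures of differentiating mouse embryonic stem cells (mESCs) held more transcripts than at 72 h of basement membrane proteins, of the enzymes that fold collagen and of endoderm transcription factors. They held fewer transcripts of some RA-induced genes such as Stra8, though not of Cyp26a1, and of most listed Hox genes and the Zscan4 family. The genes described here were higher at 96 h than at 72 h, or lower, in both bulk RNA-seq and single-cell SCRB-seq, with the bulk level at 84 h lying between the bulk levels at 72 h and 96 h. Of 23452 genes found in both tables, 13055 had at least 1 UMI in each assay at 72 h or 96 h, and 3450 of these met the rule. They comprised 1662 rising genes (12.7% of those detected) and 1788 falling genes (13.7%), where rising and falling name the direction by the rule and not the outcome of a test. In addition, 298 rising and 87 falling genes had at least 50 UMIs in the larger of the bulk libraries at 72 h and 96 h, at least 20 UMIs in the larger SCRB-seq sum, and a difference of at least 1.5-fold in both assays. These strong members were 7.36% and 2.15% of the 4050 genes above both count minimums. Counts of rising, falling and strong members in the gene lists below are to be read beside these shares.

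Cells of the E14 mESC line grew in 2i medium with LIF, which holds them in the pluripotent state, and were then moved to basal N2B27 medium without inhibitors or LIF and with 0.25 µM RA. The medium was renewed at 48 h. Whole cultures gave 1 bulk library per time point (72 h, 84 h, 96 h and earlier times) and 1 SCRB-seq plate of single cells per time point (72 h and 96 h, among others), so no late difference has a replicate. Libraries outside the rule were bulk mESCs (2 libraries), XEN-like and ectoderm-like cells sorted at 96 h (2 libraries each, the first PDGFRA-positive and CD24-negative, the second PDGFRA-negative and CD24-positive), sorted fractions at 72 h, and cultures grown on from both populations, the last of these with 1 library each. The cultures grown on from both populations were kept in N2B27 with the growth factors EGF and FGF2, and the paper names no RA for them. All samples come from the same cell line. Unsorted cultures mix both lineages: in these, fewer cells of a type and less RNA per cell cannot be told apart.

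RA enters the nucleus, binds its receptors on DNA and switches on direct targets such as the early Hox genes and enzymes that degrade RA itself. In this system it drives mESCs towards an ectoderm-like and an extraembryonic endoderm-like (XEN-like) fate. Extraembryonic endoderm arises in the blastocyst under the transcription factors Gata6, Gata4 and Sox17, and its parietal branch secretes Reichert's membrane, a thick basement membrane built of laminin, type IV collagen, nidogen and Sparc. Such secretion loads the endoplasmic reticulum (ER), where hydroxylases and chaperones act on collagen chains before their export.

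The bulk libraries at 72 h, 84 h and 96 h held 1835164, 1928511 and 1951167 UMIs. On the plates, 235 of 384 wells at 72 h and 137 of 384 at 96 h held more than 2000 UMIs, with medians of 3706 and 4028 UMIs. Both plates use the same 384 well names, and no well of 96 h was identical to a well of 72 h. Bulk values are given in UMIs per 1000000 UMIs of the library (CPM), SCRB-seq values as UMIs summed over wells per 10000 UMIs, and folds with 95% intervals that cover counting error only. Above the count minimums, 11.5% of genes were at least 1.5 times higher and 4.94% at least 1.5 times lower at 96 h in bulk. In SCRB-seq these shares were 23.2% and 17.2%. More genes differed between replicate libraries of a population: 26.8% of genes lay at least 1.5 times apart between the mESC libraries, 25.6% between sorted ectoderm-like and 24.7% between sorted XEN-like libraries, against 17.7% between bulk 72 h and 96 h, 9.69% between 84 h and 96 h and 5.86% between 72 h and 84 h. A single 1.5-fold difference is therefore within what replicates showed, and the late differences are given as descriptions. For 2 strong rising and 2 strong falling genes the bulk interval included no difference, and for 12 and 2 the SCRB-seq interval did. The ribosomal RNA entry Rn45s, left out of the totals, took 4.6% of UMIs in the 72 h wells and 7.93% in the 96 h wells. The nuclear RNA Malat1, chosen after its values were seen, was itself a strong rising gene (2176 CPM at 72 h and 3290 CPM at 96 h), and the part of RNA quality in the results was not tested.

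**Figure D1:**
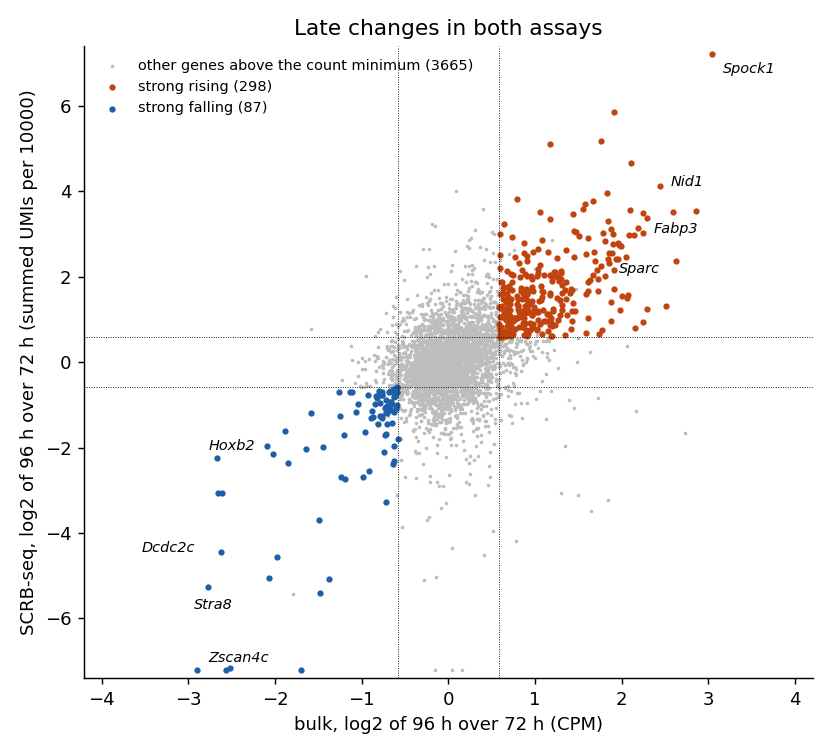
Each point is a gene above the count minimums, with its log2 ratio of 96 h over 72 h in bulk CPM on the x axis and in summed SCRB-seq UMIs per 10000 on the y axis. Dotted lines mark 1.5-fold, the 298 strong rising genes sit at upper right, the 87 strong falling genes at lower left, and 7 genes for which an assay has 0 UMIs at a time point are drawn at the plot edge.

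Both assays gave the same side for most genes with a large difference, but not for all. In total 318 genes were at least 1.5 times higher and 94 at least 1.5 times lower at 96 h in both assays before the condition on 84 h. By contrast, 32 genes were at least 1.5 times higher in bulk and at least 1.5 times lower in SCRB-seq, and 15 had the reverse pattern. Ttr, the thyroxine carrier made by yolk sac endoderm, belonged to the former. It had 33.2 CPM, 75.7 CPM and 221 CPM in bulk at 72 h, 84 h and 96 h, but 47 UMIs in 17 wells at 72 h and 8 UMIs in 6 wells at 96 h in SCRB-seq. It is therefore not a member.

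Basement membrane genes were higher at 96 h in both assays. Of 16 listed matrix genes, 10 were above the count minimums, 7 were strong rising genes (Sparc, Col4a1, Col4a2, Lama1, Lamb1, Lamc1 and Nid1) and none fell by the rule. The median log2 ratio of the 10 was 1.87 in bulk and 2.49 in SCRB-seq, beside 0.01 and 0.04 for all genes above the count minimums. Sparc, a collagen-binding matrix glycoprotein, had 1736 CPM, 3263 CPM and 6201 CPM at 72 h, 84 h and 96 h. In the single cells it went from 6.82 to 36.3 UMIs per 10000, a 5.32-fold difference (4.92 to 5.76) beside 3.57-fold in bulk (3.44 to 3.72). The bulk level was higher in each later library, and mESCs lay far below, at 220 CPM and 127 CPM. Lama1, the α chain of laminin-111, had 230 CPM, 411 CPM and 918 CPM at 72 h, 84 h and 96 h and 3.58 and 23.6 UMIs per 10000 in the wells. Its partner chains followed a similar course: Lamb1 had 343 CPM, 604 CPM and 1274 CPM, and Lamc1 had 170 CPM, 324 CPM and 616 CPM. All laminin chains of this trimer were between 3.62-fold and 3.99-fold higher at 96 h in bulk. Nid1, which bridges laminin and type IV collagen, had a different history. It had 34.1 CPM and 35.3 CPM in mESCs, 4.47 CPM at 48 h, and then 13.6 CPM, 37.9 CPM and 73.8 CPM at 72 h, 84 h and 96 h. Its level at 96 h was 5.42 times that at 72 h in bulk (3.53 to 8.65) and 17.5 times in SCRB-seq (10.3 to 32.2). Fn1 and Nid2, other matrix genes of the list, did not meet the rule: Fn1 had 48, 57 and 79 UMIs in bulk at 72 h, 84 h and 96 h but 109 and 50 UMIs in SCRB-seq.

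**Figure D2:**
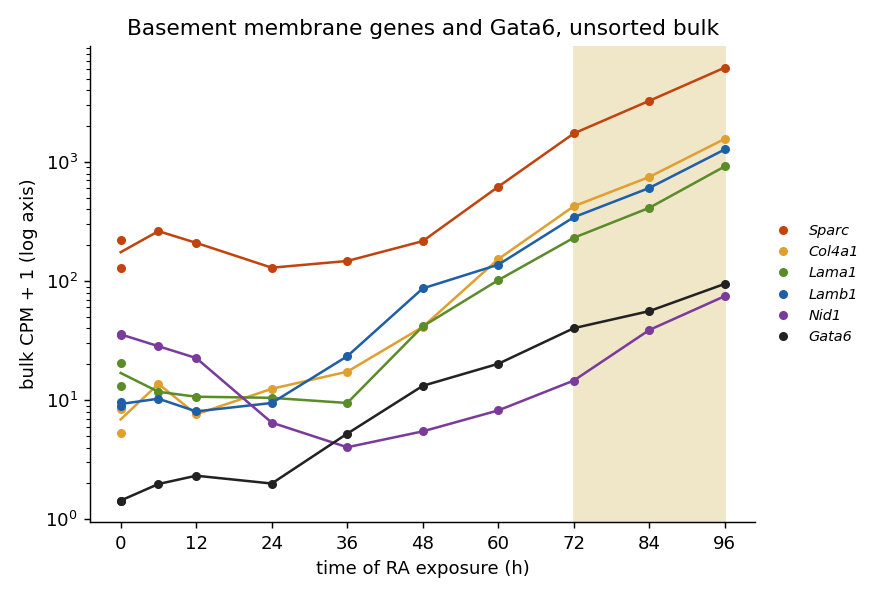
Bulk CPM plus 1 on a log axis against the time of RA exposure in hours, for Sparc, Col4a1, Lama1, Lamb1, Nid1 and Gata6, with 1 library per point, both mESC libraries at 0 h and lines through their mean. In the shaded interval from 72 h to 96 h all 6 genes are higher in each later library, and Nid1 reached 72 h from a level below that of both mESC libraries.

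Col4a1 and Col4a2 encode the chains of type IV collagen and are transcribed in opposite directions from neighbouring starts on chromosome 8, at 11312826 (minus strand) and 11312805 (plus strand) of GRCm38, 21 bases apart in RefSeq. Their promoter windows (250 bases before to 50 after each start) are shown because the genes share this stretch and were both higher at 96 h. Capitals mark the 78 bases that both windows cover, read on opposite strands:
Col4a1 (chr8:11312777-11313076, minus strand): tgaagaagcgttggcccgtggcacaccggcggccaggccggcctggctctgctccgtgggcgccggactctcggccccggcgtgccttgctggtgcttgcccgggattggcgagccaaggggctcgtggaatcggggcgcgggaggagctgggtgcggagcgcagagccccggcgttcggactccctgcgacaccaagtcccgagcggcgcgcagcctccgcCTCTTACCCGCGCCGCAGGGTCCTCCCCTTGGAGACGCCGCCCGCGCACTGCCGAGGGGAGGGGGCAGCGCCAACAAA
Col4a2 (chr8:11312555-11312854, plus strand): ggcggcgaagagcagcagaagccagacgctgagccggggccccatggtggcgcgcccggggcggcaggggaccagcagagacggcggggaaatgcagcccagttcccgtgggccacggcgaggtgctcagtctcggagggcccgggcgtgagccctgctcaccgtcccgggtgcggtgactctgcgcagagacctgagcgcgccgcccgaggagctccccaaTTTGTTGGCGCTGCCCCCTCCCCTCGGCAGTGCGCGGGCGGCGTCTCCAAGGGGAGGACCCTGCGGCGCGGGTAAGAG
Col4a1 had 424 CPM, 748 CPM and 1563 CPM at 72 h, 84 h and 96 h, and Col4a2 had 116 CPM, 219 CPM and 449 CPM. The ratio of 96 h over 72 h was 3.69 (3.41 to 3.99) for Col4a1 and 3.89 (3.34 to 4.54) for Col4a2 in bulk, and 5.87 (5.34 to 6.46) and 5.34 (4.62 to 6.2) in SCRB-seq, so that the intervals of the pair overlap in each assay. The share of wells with a Col4a1 UMI was 3.19% in mESCs, 53.2% at 72 h and 95.6% at 96 h, and after thinning each well to 2000 UMIs 1.77%, 39.1% and 90.5%.

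The enzymes that modify and fold collagen were higher at 96 h as well. Of 13 listed genes found in the tables, 8 were strong rising genes and another 3 (Plod1, Crtap and Ppib) rose by the rule, with none falling. P4ha1, a catalytic subunit of prolyl 4-hydroxylase, had 86.1 CPM, 149 CPM and 277 CPM at 72 h, 84 h and 96 h, and P4ha2 had 118 CPM, 194 CPM and 362 CPM. P4hb, which completes the enzyme and also acts as a disulfide isomerase, had 354 CPM, 483 CPM and 662 CPM. The lysyl hydroxylase Plod2 had 96.4 CPM, 160 CPM and 350 CPM, and the collagen chaperone Serpinh1 (Hsp47) had 249 CPM, 381 CPM and 601 CPM. In SCRB-seq the same genes were between 2.05 times (P4ha2) and 6 times (P4ha1) higher at 96 h. Plod3, Lepre1 and Glt25d1, which also hydroxylate or glycosylate collagen, were the other strong members of this list.

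General ER chaperones were higher at 96 h as well. Of 18 listed ER folding and stress genes, 12 were above the count minimums, 6 were strong rising genes (Hsp90b1, Calr, Pdia3, Pdia6, Xbp1 and Manf) and 11 in all rose by the rule, with none falling. Their median log2 ratio was 0.55 in bulk and 1.06 in SCRB-seq. Hsp90b1, the ER form of Hsp90, had 1260 CPM, 1480 CPM and 2001 CPM at 72 h, 84 h and 96 h. Calr, a calcium-binding chaperone of glycoproteins, had 621 CPM, 810 CPM and 1190 CPM. Pdia6, a disulfide isomerase, had 802 CPM, 1021 CPM and 1460 CPM. Xbp1, a transcription factor of the unfolded protein response, had 53.4 CPM, 70 CPM and 103 CPM. Dnajc3, an ER co-chaperone named after its values were seen, had 71.9 CPM, 115 CPM and 115 CPM and was 2.76 times higher in SCRB-seq (2.03 to 3.77).

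The ER stress element, a CCAAT box followed after 9 bases of any kind by a short second box (the last 5 capitals of the Pdia6 window), was searched on both strands and occurs in the promoter windows of 4 strong rising genes, Hsp90b1, Calr, Pdia6 and Dnajc3. RefSeq windows were found for 219 of the 298 strong rising and 58 of the 87 strong falling genes (305 and 85 windows). The element was in 1.31% of the windows of rising genes, in no window of falling genes, in 0.284% of those of all genes above the count minimums and in 0.119% of all 32851 windows. These windows are shown because the element is shared by genes that were higher at 96 h. Capitals mark each match:
Hsp90b1 (chr10:86705395-86705694, minus strand): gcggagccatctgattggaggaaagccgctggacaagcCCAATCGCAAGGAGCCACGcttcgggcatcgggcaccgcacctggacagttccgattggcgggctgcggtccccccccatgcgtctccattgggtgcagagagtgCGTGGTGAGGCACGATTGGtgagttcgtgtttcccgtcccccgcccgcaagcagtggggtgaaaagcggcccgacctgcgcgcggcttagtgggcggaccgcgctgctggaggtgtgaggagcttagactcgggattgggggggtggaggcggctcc
Calr (chr8:84846882-84847181, minus strand): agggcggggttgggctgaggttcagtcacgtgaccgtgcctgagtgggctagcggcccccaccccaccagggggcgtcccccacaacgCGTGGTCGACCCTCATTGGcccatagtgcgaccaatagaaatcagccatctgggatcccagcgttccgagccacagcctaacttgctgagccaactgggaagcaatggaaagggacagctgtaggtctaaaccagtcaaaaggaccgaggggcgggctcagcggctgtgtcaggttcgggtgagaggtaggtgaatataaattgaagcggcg
Pdia6 (chr12:17266339-17266638, plus strand): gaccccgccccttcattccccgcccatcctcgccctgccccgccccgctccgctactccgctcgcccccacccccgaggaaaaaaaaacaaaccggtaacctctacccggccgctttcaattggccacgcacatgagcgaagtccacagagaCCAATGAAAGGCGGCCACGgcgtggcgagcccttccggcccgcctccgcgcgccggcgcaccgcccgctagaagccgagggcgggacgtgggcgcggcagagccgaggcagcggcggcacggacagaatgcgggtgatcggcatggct
Dnajc3 (chr14:118937682-118937981, plus strand): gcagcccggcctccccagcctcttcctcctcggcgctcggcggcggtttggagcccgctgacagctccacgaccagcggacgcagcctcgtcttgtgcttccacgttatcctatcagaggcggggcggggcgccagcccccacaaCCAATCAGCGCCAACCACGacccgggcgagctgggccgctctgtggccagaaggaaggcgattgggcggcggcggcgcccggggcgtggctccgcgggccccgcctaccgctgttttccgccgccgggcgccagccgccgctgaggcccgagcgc
Hsp90b1 holds 2 matches, which begin 212 and 107 bases before the start, the latter as the reverse complement. In Calr the match begins 162 bases before the start, in Pdia6 98 and in Dnajc3 105. Other motifs were searched on both strands. The letters AGATAA, a motif known for Gata4 and Gata6, were in 5.57% of rising windows, 4.71% of falling windows and 6.11% of windows of genes above the count minimums. The AP-1 motif TGACTCA was in 5.25%, 3.53% and 3.22%. Over all 32851 windows the shares were 11.2% for AGATAA and 5.2% for TGACTCA. A match is a description of letters and not evidence of binding.

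The transcription factors of the endoderm program were among the rising genes. Of 9 listed, 4 were above the count minimums, and Gata4, Gata6 and Sox17 were strong rising genes. Gata6 had 39.2 CPM, 55 CPM and 93.8 CPM at 72 h, 84 h and 96 h, and 0.521 and 2.82 UMIs per 10000 in the wells. Gata4 had 31.1 CPM, 37.3 CPM and 93.3 CPM, so that most of its difference fell between 84 h and 96 h. Sox17 had 38.1 CPM, 71 CPM and 86.1 CPM, with the larger step before 84 h. Foxa1 fell by the rule. Foxa2, a factor of visceral and definitive endoderm, was no member: it had 16.3 CPM, 21.3 CPM and 22.6 CPM in bulk but 112 and 42 UMIs in SCRB-seq. All 11 listed XEN markers were strong rising genes, among them Sparc, Lama1 and Gata6, the markers named with this comparison. The rule used these same values. The paper also named Sparc, Col4a1, Lama1 and Dab2 from a principal component of the same SCRB-seq data. The result is therefore a description and not a check. The summed level of the 11 was 3445 CPM, 6230 CPM and 12297 CPM at 72 h, 84 h and 96 h. Each of these 11 also belongs to another list given here, so the lists do not count separate genes.

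Receptors, carriers and other genes known from extraembryonic endoderm were among the rising genes too. Pdgfra, the receptor by which XEN-like cells were sorted, had 25.6 CPM, 48.7 CPM and 95.8 CPM at 72 h, 84 h and 96 h. Of 14 endocytosis and carrier genes, 4 were strong rising genes. Dab2, an endocytic adaptor, had 293 CPM, 449 CPM and 908 CPM. Lrp2 (megalin) had 24 CPM, 35.8 CPM and 54.3 CPM, and its partner Cubn had 37.6 CPM, 45.6 CPM and 95.3 CPM. Rbp4, the plasma carrier of retinol, had 10.9 CPM, 19.7 CPM and 48.2 CPM. The carriers Apoa1, Afp and Apoe did not meet the rule. Of 10 listed parietal endoderm genes, 6 were strong rising genes and 8 rose by the rule. Srgn, a secretory granule proteoglycan, had 294 CPM, 566 CPM and 1011 CPM. Fst, an activin antagonist, had 49.6 CPM, 124 CPM and 173 CPM. Pth1r, the parathyroid hormone receptor known from parietal endoderm, had 53.9 CPM, 83.5 CPM and 165 CPM. The keratins Krt8 and Krt19 were strong rising genes too, with 65.4 CPM, 104 CPM and 160 CPM for Krt8. Not all genes of these lists were called between the sorted lineages by edgeR (below an adjusted p of 0.05). Called higher in XEN-like cells were 3 of 7 endocytosis genes, 7 of 9 parietal endoderm genes and 1 of 3 keratins tested. Of all genes tested 6.98% were. A gene that was not called may still differ, since the test recovered 8.4% of genes changed 2-fold in simulated data.

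By size, with the smaller of the bulk and SCRB-seq log2 ratios as the measure, the 12 leading rising genes were Spock1, Plaur, F3, Nid1, Fxyd3, Nrk, Adam19, Fabp3, Cryab, Rbp4, Lipg and Arhgef28. Spock1, a secreted proteoglycan, had 12, 31 and 105 UMIs in bulk, which is 6.54 CPM, 16.1 CPM and 53.8 CPM. None of the 72 h wells held a Spock1 UMI and 41 of 137 wells at 96 h did, so its SCRB-seq level was at least 51.6-fold higher, against a floor of 3 UMIs over the 72 h wells. Plaur, the urokinase receptor, had 3.81 CPM, 13 CPM and 27.7 CPM, and F3, tissue factor, had 34.9 CPM, 88.2 CPM and 210 CPM. Both act at the cell surface in proteolysis and coagulation. Fxyd3, a regulator of the sodium pump, had 22.3 CPM, 59.6 CPM and 138 CPM. The metalloprotease Adam19 had 9.81 CPM, 20.7 CPM and 46.6 CPM. Fabp3, a fatty acid-binding protein, had 204 CPM, 457 CPM and 963 CPM, and the small heat shock protein Cryab had 186 CPM, 446 CPM and 844 CPM. Fabp3 was already present in mESCs, where the libraries differed widely (300.1 CPM and 1255 CPM), and had its lowest bulk level at 48 h (38.2 CPM). Nrk, a protein kinase, had 8.17 CPM at 72 h and 40 CPM at 96 h, the lipase Lipg 14.7 CPM and 63.6 CPM, and Arhgef28, an exchange factor for small GTPases, 16.3 CPM and 69.7 CPM.

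Lysosomal genes formed another rising group. Of 17 listed, 8 were strong rising genes and 15 rose by the rule, and none fell by it. Ctsl, a cysteine protease long known to be secreted by parietal endoderm, had 664 CPM, 1109 CPM and 2192 CPM at 72 h, 84 h and 96 h, a 3.3-fold difference (3.1 to 3.52). Lgmn had 27.8 CPM, 36.3 CPM and 88.7 CPM, and the tetraspanin Cd63 had 479 CPM, 711 CPM and 1142 CPM. Ctsd, Ctsz, Ctsa and Psap were strong members too, with bulk folds between 1.59 and 2.25. Of 19 glycolysis and hypoxia genes in the tables, Slc2a3 and Ndrg1 were strong and 9 in all rose by the rule, beside 12.7% of detected genes. Of 15 cholesterol genes 4 were strong rising genes, among them Lss, Dhcr7 and Insig1, beside 7.36% of genes above the count minimums. Among pluripotency markers only Klf4 was strong: it had 64.7 CPM and 74.9 CPM in mESCs, and then 10.9 CPM, 17.6 CPM and 29.2 CPM at 72 h, 84 h and 96 h. Such a dip was shared by 41 of the 298 strong rising genes (13.8%), whose mESC libraries both lay above bulk 72 h, as they did for 18.1% of genes above the count minimums.

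Falling genes included some of the genes known to respond to RA. Stra8, a gene named for its stimulation by RA and required for entry into meiosis, had 620 CPM and 457 CPM at 48 h and 60 h and then 185 CPM, 79.3 CPM and 27.2 CPM at 72 h, 84 h and 96 h. In the wells it went from 144 UMIs at 72 h to 2 UMIs at 96 h. Its bulk level at 72 h was 6.82 times that at 96 h (5.09 to 9.29). Crabp2, which hands RA to its nuclear receptor, had 1072 CPM, 959 CPM and 496 CPM at 72 h, 84 h and 96 h. Of 15 listed RA response genes 3 were strong falling genes, Stra8 and Crabp2 among them. In all 7 fell by the rule, beside 13.7% of detected genes, and Cyp26a1 rose by it. Cyp26a1, the main RA-degrading enzyme, had 110 CPM, 131 CPM and 135 CPM and 1.62 and 3.6 UMIs per 10000. Cyp26a1 and Stra8 thus lay on opposite sides. Rarb, an RA receptor, had 20.2 CPM, 18.7 CPM and 9.74 CPM. A retinoic acid response element, 2 copies of AGGTCA with 5 bases between them on either strand, was in no window of a strong rising or falling gene and in 0.00913% of all windows, which says nothing about binding elsewhere.

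**Figure D3:**
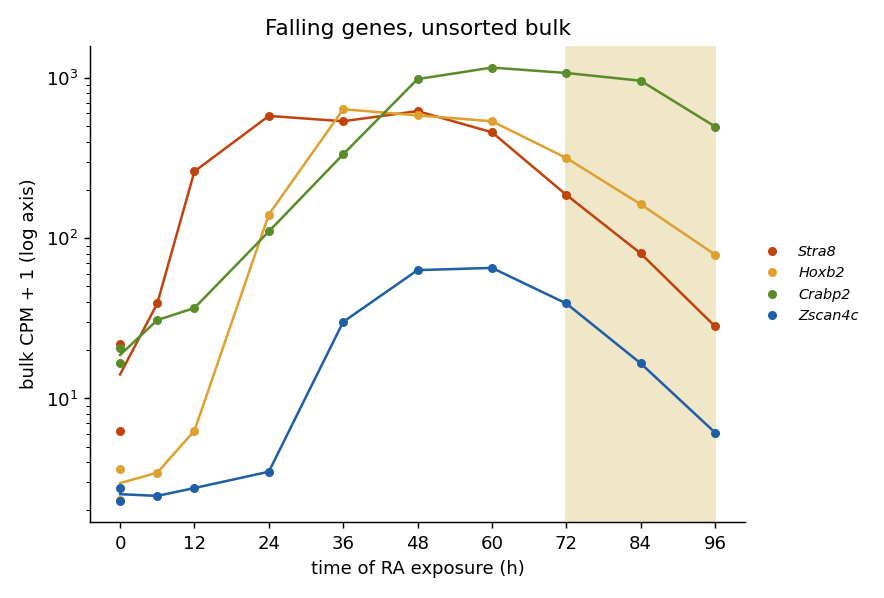
Bulk CPM plus 1 on a log axis against the time of RA exposure in hours, for Stra8, Hoxb2, Crabp2 and Zscan4c, with 1 library per point, both mESC libraries at 0 h and lines through their mean. In the shaded interval from 72 h to 96 h each gene is lower in each later library, and all 4 lie higher at 60 h than in either mESC library.

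The Hox genes, which pattern the body axis and of which the anterior members answer RA first, were lower almost throughout. Of 20 listed, 16 fell by the rule and none rose by it, beside 13.7% of detected genes that fell. Only 2 were above the count minimums, and both were strong falling genes, Hoxb2 among them. Hoxb2 had 536 CPM at 60 h and 316 CPM, 162 CPM and 77.9 CPM at 72 h, 84 h and 96 h. The summed level of the list was 501 CPM, 255 CPM and 131 CPM in bulk.

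Ectoderm-like and neural genes showed smaller late losses. Of 11 ectoderm markers, Prtg, Mdk and Hoxb2 were strong falling genes, Pax6, Meis1 and Crabp1 also fell by the rule, and Nes rose by it. Mdk (midkine), a growth factor, had 1168 CPM, 950 CPM and 711 CPM at 72 h, 84 h and 96 h, and Prtg, a receptor of the immunoglobulin family, had 154 CPM, 145 CPM and 97.4 CPM. The median log2 ratio of the 8 markers above the count minimums was -0.39 in bulk and -0.82 in SCRB-seq, and their list sum went from 2674 CPM to 1709 CPM. Of 25 neural progenitor genes, Zic2 and Ncam1 were strong falling genes, 7 fell and 3 rose by the rule, beside 13.7% and 12.7% of detected genes. The 30 growth factor and signalling genes were split, with 4 strong rising members (Pdgfra and Cyr61 among them) and 3 strong falling members. By the rule 8 rose and 7 fell, beside 12.7% and 13.7% of detected genes. Median log2 ratios of this list were 0.27 in bulk and 0.41 in SCRB-seq. The strong falling members were Id1 and Id3, targets of BMP signalling, and Igfbp5. Id3 had 368 CPM, 291 CPM and 154 CPM. The homeodomain cofactor Meis2 and the Polycomb methyltransferase Ezh2, named after their values were seen, were also among the 87. Ezh2 had 447 CPM at 72 h and 262 CPM at 96 h.

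The leading falling genes by the same measure included Zscan4c, Stra8, Raet1b, Dcdc2c, Raet1d, Gm21304, Tshz1, Gm20767, Hoxb2, Gm7102 and Arg1. Zscan4 genes encode zinc finger proteins of the 2-cell embryo that also flicker on in rare cells of mESC cultures. Zscan4c had 1.75 CPM and 1.31 CPM in mESCs, 64.3 CPM at 60 h, and then 38.1 CPM, 15.6 CPM and 5.13 CPM at 72 h, 84 h and 96 h. The Zscan4 and Raet1 families and the Gm genes have near-identical copies among which reads may have been split or shared, so their single values are uncertain. In the wells, Zscan4c and 5 genes named with it after their values were seen (Gm7102, Gm20767, Gm21304, Dcdc2c and 2310039L15Rik) gave 7179 UMIs at 72 h and 136 at 96 h. A single 72 h well held 38.5% of these UMIs and 2 wells held 54.7%, while 27 of 235 wells held none. Without these 2 wells all 6 remained strong falling genes, and Dcdc2c, for example, was 9.82 times higher at 72 h in place of 21.9 times. Tshz1, a zinc finger factor, had 49 CPM, 15 CPM and 7.69 CPM at 72 h, 84 h and 96 h. The arginase Arg1 had 65.4 CPM, 47.7 CPM and 15.4 CPM, and in the sorted cells 103 CPM and 44.6 CPM in ectoderm-like against 1.52 CPM and 2.73 CPM in XEN-like libraries.

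Several lists held few or no strong members. None of 18 S phase or 18 G2/M genes was strong, with medians of -0.17 and 0.01 in bulk and -0.16 and -0.12 in SCRB-seq. Of the S phase genes 5 fell and 3 rose by the rule, beside 13.7% and 12.7% of detected genes. Replication genes outside the list could be strong, as the falling gene Rpa1 was. The list of G1 cyclins, CDK inhibitors and Myc held no strong member. Of 14 p53 targets and apoptosis genes only Trp53inp1 was a strong (falling) member. Of 18 imprinted genes only H19 was strong (20.7 CPM, 42 CPM and 49.7 CPM). Of 13 cadherin and EMT genes 3 were above the count minimums, and 2 of these, Vim and Cldn6, were strong rising genes. The share among all genes above the count minimums was 7.36%. None of the mesoderm, trophoblast and mesenchyme lists had a gene above the count minimums: the summed level at 72 h and 96 h was 12.5 CPM and 9.74 CPM for 6 mesoderm markers, of which T, Mixl1 and Tbx6 were at 0 in bulk at both times, 85.6 CPM and 127 CPM for 7 trophoblast markers, with Elf5 at 0, and 18.5 CPM and 18.5 CPM for 6 mesenchyme markers. Of 7 post-implantation epiblast markers, 1 rose by the rule and none was strong.

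Libraries of cells sorted at 96 h, which the rule did not use, show which lineage expressed the strong members. Of the 298 strong rising genes, 183 (61.4%) were higher in XEN-like than in ectoderm-like cells by edgeR's quasi-likelihood test with Benjamini-Hochberg adjustment over 8945 genes, where 6.98% of all genes were. By this test 0 were higher in ectoderm-like cells, 2 at an unadjusted p under 0.05 and 0 by DESeq2. Of the 87 strong falling genes, 35 (40.2%) were higher in ectoderm-like cells, where 5.71% of all genes were, and 0 were higher in XEN-like cells, also at an unadjusted p under 0.05 and by DESeq2. The median log2 fold change of XEN-like over ectoderm-like cells was 1.57 for rising, -0.89 for falling and -0.06 for all genes tested. The counts rest in part on the first ectoderm-like library: without it 68 of the rising and 19 of the falling genes were called, while without the second XEN-like library 125 and 23 were. Calls over all genes dropped as well, to 1.34% higher in XEN-like and 1.34% higher in ectoderm-like cells without the former library and to 3.34% and 2.12% without the latter. The second ectoderm-like library held more RNA of XEN markers, which summed to 1779 CPM there against 485 CPM in the first and 12050 CPM and 6665 CPM in the XEN-like libraries. The part of that difference in the counts was not tested.

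**Figure D4:**
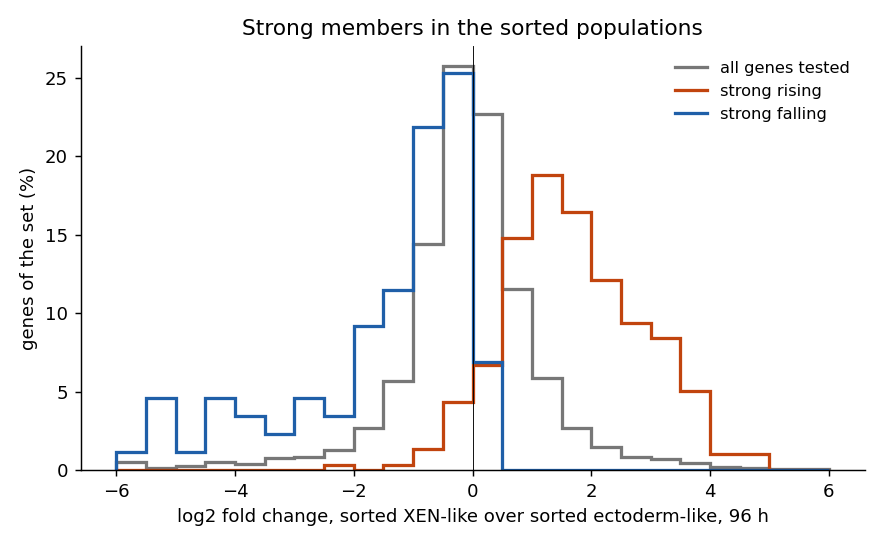
The share of genes in % (y axis) by log2 fold change of sorted XEN-like over sorted ectoderm-like cells at 96 h (x axis, bins of 0.5), for all 8945 genes tested, 298 strong rising and 87 strong falling genes. Rising genes lie mostly right of 0 with a median of 1.57, and falling genes mostly left with a median of -0.89. Values beyond 6 either way are drawn in the end bins.

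Single genes show the range. All 11 XEN markers were called higher in XEN-like cells. Pdgfra, which is among them and among the 183 called above, follows from the sort on PDGFRA and does not count as support. Gata6 had 148 CPM and 91.2 CPM in the XEN-like and 6.11 CPM and 11 CPM in the ectoderm-like libraries, a log2 fold change of 3.9 (SE 0.401, adjusted p = 0.000678 by edgeR). Lama1 had 1085 CPM and 401 CPM against 28.3 CPM and 73 CPM (3.93, SE 0.525, adjusted p = 0.00137 by edgeR). For Col4a1 the XEN-like libraries themselves lay far apart, at 1208 CPM and 236 CPM, against 61.7 CPM and 158 CPM in ectoderm-like cells. The ranges did not overlap, and the log2 fold change was 2.75 (SE 0.619, adjusted p = 0.0141 by edgeR). Plaur (22.9 CPM and 39.2 CPM against 1.67 CPM and 2.58 CPM) and Fabp3 (801 CPM and 1859 CPM against 26.1 CPM and 138 CPM) were called as well. Some rising genes were not tied to the XEN-like cells. Cyr61, a matricellular protein, had 82.3 CPM and 89.3 CPM in XEN-like and 82.3 CPM and 71.7 CPM in ectoderm-like libraries. H19, an imprinted non-coding RNA, had 5.59 CPM and 9.12 CPM against 12.2 CPM and 8.4 CPM, all below its 49.7 CPM in the unsorted culture at 96 h. Vim had 129 CPM and 147 CPM against 169 CPM and 307 CPM. None of these 3 passed the test. Rbp4 had 22.3 CPM and 19.1 CPM in XEN-like but 3.33 CPM and 72.4 CPM in ectoderm-like libraries, so that its ranges overlapped.

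On the falling side Crabp2 was far apart, with 16.3 CPM and 19.1 CPM in XEN-like and 1591 CPM and 1112 CPM in ectoderm-like libraries (log2 fold change -6.16, SE 0.336, adjusted p = 7.71e-06 by edgeR). Hoxb2 had 5.59 CPM and 4.56 CPM against 389 CPM and 117 CPM (-5.49, SE 0.594, adjusted p = 0.000696 by edgeR), and Id3 had 17.8 CPM and 13.7 CPM against 610 CPM and 393 CPM. Stra8 and Zscan4c were not called. Stra8 had 48.8 CPM and 7.29 CPM in XEN-like and 82.8 CPM and 9.69 CPM in ectoderm-like libraries, so that the spread within each population was wider than the distance between them. Zscan4c had 9.65 CPM and 4.56 CPM against 34.5 CPM and 3.23 CPM, and its ranges overlapped as well.

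Sorted libraries of both times allow a comparison of fractions with like surface markers, without replicates at 72 h. Of the 298 strong rising genes, 277 had at least 50 UMIs in a XEN-like library at 96 h or in the PDGFRA-positive, CD24-negative library at 72 h. The mean of the XEN-like libraries was at least 1.5 times higher at 96 h for 86 of them (31%) and lower for 2, where 11.6% and 1.12% of all such genes were. Such a mean can rest on 1 library. Rrbp1, chosen after its values were seen, had 35.3 CPM at 72 h and 367 CPM and 33.7 CPM at 96 h. How many of the 86 were higher in both XEN-like libraries is not given here. In the ectoderm-like libraries, compared with the mean of the 3 PDGFRA-negative fractions at 72 h, 44 of 166 strong rising genes (26.5%) were higher at 96 h and 6 (3.61%) lower, beside 13.3% and 7.02% of all such genes. This mean includes the second ectoderm-like library, which held more RNA of XEN markers. Dab2 had 30.6 CPM and 242 CPM there at 96 h, against 138 CPM, 55.6 CPM and 35.3 CPM in the fractions at 72 h. Cyr61 was higher in both libraries (82.3 CPM and 71.7 CPM against 14.8 CPM, 15 CPM and 18.4 CPM). A gain within ectoderm-like cells cannot be read from this count. Sparc had 1329 CPM in the PDGFRA-positive library and 5454 CPM and 3414 CPM in the XEN-like libraries, and Col4a1 had 98.5 CPM against 1208 CPM and 236 CPM. In contrast, Dab2 had 1014 CPM at 72 h and 1263 CPM and 950 CPM at 96 h, Cited1 had 422 CPM against 335 CPM and 534 CPM, and Sox17 had 202 CPM against 150 CPM and 118 CPM. For these, the library sorted at 72 h lay within or above the range at 96 h, while the unsorted culture was higher at 96 h. Of the 87 strong falling genes, 84 had enough UMIs in the ectoderm-like or the PDGFRA-negative libraries. The mean of the ectoderm-like libraries at 96 h was at least 1.5 times below that of the 3 PDGFRA-negative fractions for 23 of them (27.4%) and above it for 6 (7.14%). Of all such genes 7.02% were lower and 13.3% higher. In the XEN-like comparison 2 of 36 strong falling genes were higher and 2 lower (5.56% each), beside 11.6% and 1.12% of all such genes. The PDGFRA-negative fractions (T1 to T3, which differ in CD24) were no pure ectoderm-like cells: the pluripotency markers summed to 4643 CPM in T1, 1983 CPM in T2 and 1314 CPM in T3 against 790 CPM and 432 CPM in the ectoderm-like libraries at 96 h. Dcdc2c, for example, had 707 CPM, 228 CPM and 64.5 CPM in T1, T2 and T3, against 42.8 CPM and 12.3 CPM in the ectoderm-like libraries. A difference in cell makeup and a change within the lineage cannot be told apart here. Whether more cells of a type or more RNA per cell lies behind an unsorted difference was not tested.

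The unsorted 96 h library lay above all 4 libraries sorted at 96 h for 81 strong rising genes (27.2%), where 17.1% of genes above the count minimums did, and below all 4 for none (7.21%). Sparc, with 6201 CPM unsorted, and Col4a1, with 1563 CPM, were among the former. The rule used the unsorted 96 h library, so this count is a description. Past 96 h, single libraries exist of XEN-like cells cultured for 3 weeks and of ectoderm-like cells at passage 5. In the paper the former grew as floating aggregates and the latter attached to coated dishes, both with EGF and FGF2 and with no RA named. Lineage and growth form cannot be told apart between these cultures, nor time and medium against the 96 h library. Of 251 strong rising genes with at least 50 UMIs in either, 136 (54.2%) were at least 1.5 times higher in the XEN-like culture and 38 (15.1%) in the ectoderm-like culture, beside 26.1% and 38.7% of all genes. Fxyd3 reached 1410 CPM, Krt8 1107 CPM and Krt19 832 CPM in the XEN-like culture, and Ctsl reached 8843 CPM. Dab2 (140 CPM), Cryab (188 CPM) and Fabp3 (88.3 CPM) were below their 96 h levels there. Against the unsorted 96 h library, 86 of the 298 (28.9%) were at least 1.5 times higher and 96 (32.2%) lower in the XEN-like culture, beside 23.7% and 39.8% of all genes. In the ectoderm-like culture 32 were higher and 184 (61.7%) lower, beside 20.8% and 25.3%. H19 stood at 557 CPM in cultured ectoderm-like cells against 4.14 CPM in cultured XEN-like cells, and Stra8 was low in both, at 2.68 CPM and 2.76 CPM.

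Before 72 h, 248 of the 298 strong rising genes (83.2%) were lower at 60 h than at 72 h, beside 63.1% of genes above the count minimums. Their median log2 step over these 12 h was 0.44, beside 0.09 for genes above the count minimums. Of the 87 strong falling genes, 48 (55.2%) were higher at 60 h than at 72 h, beside 36.9%. For 75 of them (86.2%) the 48 h or 60 h library lay above both mESC libraries, beside 65% of genes above the count minimums. The rule used the 72 h library, so that the comparisons with 60 h are a description. It also fixed the direction of both later steps.

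The wells show how the late gain was spread over cells. With each well thinned to 2000 UMIs, the strong rising genes summed to 3 UMIs in the lowest, 37 in the median and 152 in the highest of the 235 wells at 72 h. At 96 h the 137 wells held 29, 120 and 255. Of the 72 h wells, 9 (3.83%) reached the 96 h median, and 5 of the 96 h wells (3.65%) were at or below the 72 h median. The wells of 96 h ranged widely, with quartiles of 63 and 151, and the lower part of them overlapped the 72 h wells. In mESC wells the sum was 22 to 78 with a median of 52, above that at 60 h (40) and 72 h (37). The XEN markers alone went from a median of 2 at 72 h to 23 at 96 h, and were at 0 in 16.6% of 72 h wells and in none of 137 wells at 96 h. The ectoderm markers went from 6 to 3. The strong falling genes summed to 15, 41 and 468 at 72 h (lowest, median and highest well) and 6, 21 and 51 at 96 h. Wells of a plate come from 1 culture and are no replicates, and the rule used their sums.

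**Figure D5:**
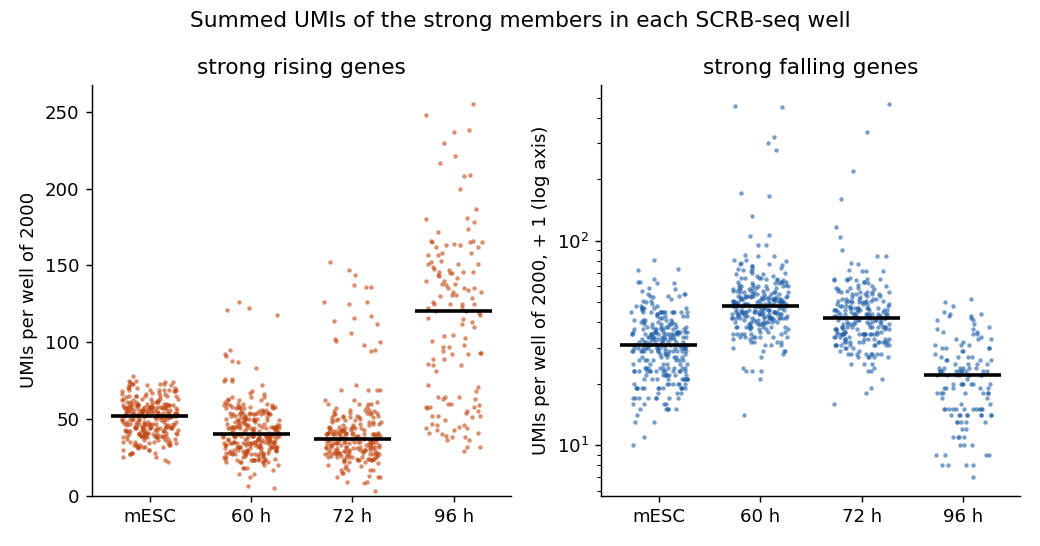
Each point is a SCRB-seq well thinned to 2000 UMIs, with the summed UMIs of the 298 strong rising genes (left, linear axis) and the 87 strong falling genes plus 1 (right, log axis) for mESCs and for 60 h, 72 h and 96 h of RA, and bars at the medians. The rising sum has a median of 37 at 72 h and 120 at 96 h, and the falling sum 41 and 21.

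Near the 1.5-fold threshold, Atp6v1e1, a subunit of the vacuolar proton pump, was the last rising gene inside (1.502-fold in bulk, 2.45-fold in SCRB-seq), and Ldha, lactate dehydrogenase, the first outside (1.58 and 1.4998). On the falling side the replication protein Rpa1 lay just inside (1.5006 and 3.48) and 2810417H13Rik just outside (1.4993 and 1.51). Gapdh, a glycolytic enzyme used as a reference, had 3417 CPM, 3745 CPM and 3575 CPM at 72 h, 84 h and 96 h.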

How the data were processed

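The authors aligned reads of 3′-end bulk libraries and SCRB-seq plates with bwa 0.7.4 to RefSeq mRNAs (mm10) and deposited raw counts, each UMI counted once per gene and library or well. Members and gene lists were chosen with earlier results of these data known. Bulk counts were divided by library totals (1063809 to 2459424 UMIs over 25 libraries), SCRB-seq counts of wells above 2000 UMIs were summed. Doublets were not called. Among bulk entries, 2 damaged genes (Gkn2 and Rn45s) and 4 entries with repeated names were left out, also from SCRB-seq totals, and 23 date-like names found no partner. Fold intervals are exact, conditional on the summed counts. Thinning used 1 fixed seed.

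Sorted XEN-like and ectoderm-like cells were compared with edgeR 4.0.16 (R 4.3.3, TMM, filterByExpr, quasi-likelihood fit with the mESC libraries, threshold 0.05). The labels call the 2 libraries of a sorted population biological replicates. Replicates had a biological coefficient of variation of 0.247. Tested on simulated data of 8443 genes for this comparison, the step recovered 8.4% of 95 genes changed 2-fold and 70.1% of 97 changed 4-fold, none in the wrong direction, and called 5 unchanged genes. Alternatives included DESeq2 1.42.0, other scalings, well minimums, count minimums, folds and leaving out libraries. Named genes are those of the lists, the 12 strong members of each direction with the largest smaller log2 ratio, those nearest the threshold, Gapdh, and others named as chosen after their values were seen (also Ttr, Fn1 and the carriers beside members). Gene starts and promoter windows are RefSeq's on GRCm38.p6. Python 3.11.15 with numpy 2.4.6, scipy 1.17.1 and pandas 2.3.3 was used. SMART-seq2 cells, which end before 72 h, were not used here. Some members and listed genes are counted but not reported by name here.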

Additional observations from a re-analysis of the deposited data

How the results depend on the processing

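The counts of members and of strong members stayed within 1.5 times of the values given under TMM or Gapdh scaling in bulk, a mean over wells, wells above 1000 or 4000 UMIs, and, both added after seeing the data, totals with Rn45s and leaving out the 2 wells highest for the Zscan4c group. Of the 298 strong rising genes, between 246 (relative to Gapdh) and 292 were kept under these settings, and of the 87 strong falling genes between 77 (mean over wells) and 87. Relative to Gapdh the median of all genes shifted by -0.065 on the log2 scale, and the share of higher genes among those 1.5 times apart in bulk was 58.9% in place of 70%. Other settings moved the counts. Without the condition on 84 h, 3738 genes rose and 3771 fell. With the count minimums, 813 members rose and 683 fell. A fold of 2 left 124 strong rising and 26 strong falling genes, minimums of 20 and 10 UMIs gave 468 and 211, and no minimum gave 758 and 713. These changes follow from the settings themselves.

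Strong rising genes called higher in XEN-like cells ranged from 68 to 197 when each library was left out in turn, and strong falling genes called higher in ectoderm-like cells from 19 to 36. DESeq2 called 157 and 30. Strong rising genes called higher in ectoderm-like cells ranged from 0 to 2 when libraries were left out, and were 2 with no low-count filter and 1 with the 4 sorted libraries only. Strong falling genes called higher in XEN-like cells stayed at 0. Leaving out a sorted library leaves 1 in its group, which is then assumed to vary like the others. The labels give replicate numbers to both sorts without tying them to a shared culture. Deviations of equal numbers correlated at 0.332, and with the replicate block 204 and 41 genes were called. Rbp4, not called, had a log2 fold change of -0.78, of 0.057 with the replicate block (adjusted p = 0.971 by edgeR) and of 2.83 without the second ectoderm-like library (adjusted p = 0.0333 by edgeR), -1.72 without the first (adjusted p = 0.0458 by edgeR), so that these 2 libraries set its direction. The other alternatives gave values between -0.79 and -0.76 with adjusted p from 0.255 to 0.76 by edgeR or DESeq2. The cause was not tested. Genes with few UMIs, such as Plaur, are limited by counting, and 1 library per time point limits all late differences.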
